A study of Mus musculus with 18 samples.

Results

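The libraries described here are 4 of monocyte-derived microglia and 4 of host microglia, chosen by their sample labels, out of 18 libraries of sorted brain macrophages in 5 groups. Wild-type C57BL6/C mice received lethal irradiation and then marrow of the genotype Ms4a3-Cre: R26-TdTomato: Cx3cr1-gfp. All cells were taken 32 weeks later. Host microglia were sorted as cells without colour, and monocyte-derived microglia as cells with both GFP and TdTomato. Up to 100000 cells were sorted per library after the leptomeninges had been washed off, the brain digested and myelin removed on Percoll, with actinomycin D present. RNA was captured by its poly(A) tail and sequenced by bulk MARS-seq, a 3' method that counts unique molecular identifiers (UMIs). Host cells had been through irradiation and carried none of the 3 donor alleles. Monocyte-derived cells carried all 3, had not been irradiated in the recipient, and had entered the brain after transplantation, so that origin, irradiation, time in the brain and the donor alleles cannot be told apart in this comparison. The labels do not say whether replicates are separate mice, so that p-values measure only the spread between these samples.

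Microglia are the resident macrophages of the brain parenchyma; they descend from yolk sac progenitors and renew themselves locally. After irradiation, part of them can be replaced by macrophages that descend from transplanted marrow. Ms4a3 is expressed in granulocyte-monocyte progenitors, and a Cre driven by it labels monocytes and their progeny for good, so that the TdTomato label records a past cell state. Sall1 is a transcription factor that sets microglia apart from other macrophages, while P2ry12, Tmem119 and Cx3cr1 encode surface proteins long used as microglial markers.

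Total counts ran from 1230127 to 2440234 in host and from 1072911 to 1507199 in monocyte-derived libraries. Levels are counts per 1000000 (CPM) after TMM scaling, and 3 counts in a library stood for 1.05 to 2.47 CPM. Counting floors and intervals cover counting error only. Pearson's r of log2 CPM across genes was 0.962 to 0.967 between monocyte-derived libraries, 0.971 to 0.981 between host libraries and 0.868 to 0.886 across the groups; genes are not independent replicates. The first principal component of the 8 libraries held 70.6% of the variance and separated the groups. Neither Gfp, TdTomato nor Ms4a3 is in the count table, so the sort was checked only on other genes.

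Of 10597 genes tested, 1603 were higher and 1598 lower in monocyte-derived microglia at an adjusted p below 0.05 (edgeR quasi-likelihood test, two-sided, Benjamini-Hochberg over all tested genes), 30.2% in all and 15.1% in each direction. A gene past that threshold is said below to have risen or fallen, with host microglia as the reference. Counts of list members below stand against these 15.1% in each direction. The large changes leaned upward. Past 4-fold there were 431 risen and 182 fallen genes, and past 16-fold 135 and 30. The median log2 change of all tested genes was 0.01. Of 1476 genes with at least 100 CPM in monocyte-derived microglia, 17 lay below 10 CPM in host microglia, and of 1579 with at least 100 CPM in host microglia, 3 lay below 10 CPM in monocyte-derived microglia. The 17 include Mir692-1, whose group mean was set by 1 library. In bulk libraries, fewer cells that express a gene and less of its RNA per cell cannot be told apart, and this holds for every difference given here.

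**Figure D1:**
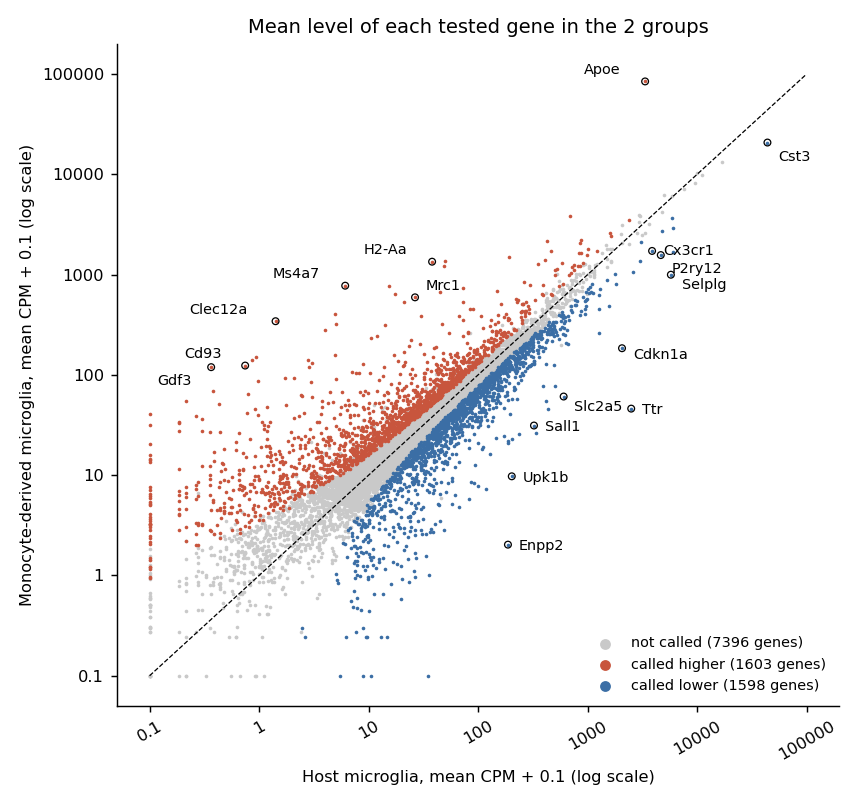
Mean CPM plus 0.1 of each of the 10597 tested genes in 4 host (x axis) and 4 monocyte-derived libraries (y axis), both on a log scale, coloured by the edgeR call, with the dashed line at equal levels. Apoe lies far above the line at the top right, a group of genes near 0 in host cells reaches 100 to 776 CPM at the left, and Cst3, P2ry12 and Cx3cr1 stay in the upper range of both groups.

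The 5 marker genes separated the groups without overlap, which 38.3% of all tested genes also did. Ms4a7, a tetraspan membrane protein of the MS4A family, had 4.27, 12.2, 5.59 and 2.00 CPM in host replicates 1 to 4 and 815, 749.8, 783 and 755 CPM in monocyte-derived replicates 1 to 4, a log2 change of 6.90 ± 0.26 (SE; adjusted p = 3.9e-21, edgeR). Clec12a, an inhibitory C-type lectin receptor of myeloid cells, had 2.85, 0, 1.75 and 0.666 CPM in host and 349.6, 348, 337 and 338 CPM in monocyte-derived libraries (log2 change 7.98 ± 0.29). In both genes the 4 monocyte-derived libraries lay within a narrow band, while the host values ran from 0 to 12.2 CPM. Apoe, the apolipoprotein that carries lipid between brain cells, had 3397, 3476, 2984 and 3556 CPM in host and 80129, 80517, 88069.7 and 89123 CPM in monocyte-derived libraries (log2 change 4.65 ± 0.28, adjusted p = 8.3e-16). It alone took 0.350 to 0.410% of host counts and 9.12 to 10.02% of monocyte-derived counts. Apoe was thus well expressed in both groups and differed in amount, unlike Ms4a7 and Clec12a.

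Sall1 had 316, 336, 314 and 329.6 CPM in host libraries and 29.8, 25.5, 25.8 and 43.6 CPM in monocyte-derived libraries (log2 change -3.38 ± 0.19, adjusted p = 2.3e-16), so it was low but present in all 4 of the latter. P2ry12, the ADP receptor through which microglia sense tissue damage, had 5066, 4106, 4355 and 5121 CPM against 1583, 1458, 1506 and 1719.8 CPM (log2 change -1.57 ± 0.21). Tmem119 had 2828, 2029.9, 2584 and 2929 CPM against 1089.9, 1002, 1058 and 1056 CPM, and Cx3cr1, the fractalkine receptor, 4102, 3358, 4477 and 3595 CPM against 1681, 1669, 1659 and 1884 CPM. These 3 surface genes stood at 1002 CPM or more in every library of both groups, and their changes of -1.57, -1.30 and -1.17 were smaller than that of Sall1. For Cx3cr1, the donor cells carried a gfp allele of the gene itself, whose part in the value was not tested.

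**Figure D2:**
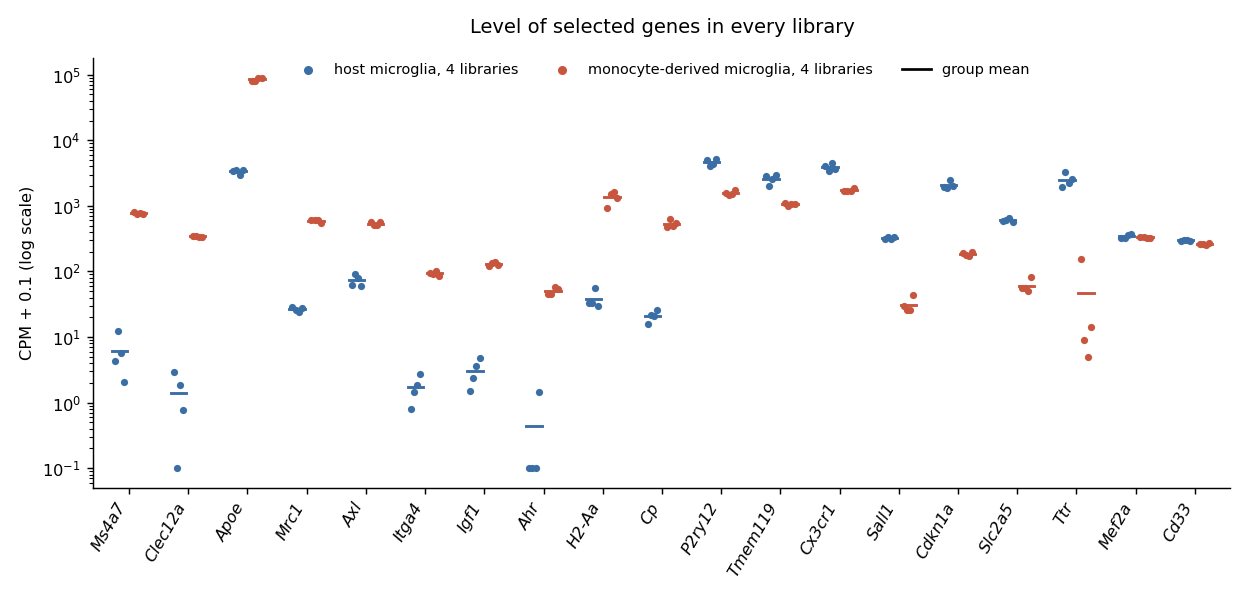
CPM plus 0.1 on a log scale of 19 genes in each of 4 host and 4 monocyte-derived libraries; points are libraries and short lines group means. In 18 of the 19 genes shown, Mef2a being the exception, the libraries of the groups do not overlap; Ttr is spread from 4.88 to 156 CPM in monocyte-derived microglia.

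The 250 bases before the transcription start of these marker genes are shown because the 5 genes anchor the comparison (RefSeq, build GRCm38.p6; the first start listed for each gene, and a further start, chosen because it holds a motif, for Ms4a7, Apoe and Sall1). Capitals mark matches to the searched motifs TGANTCA (bound by AP-1), CACGTG (an E-box), GAAA or GGAA followed after NN by GAAA (elements of interferon-responsive promoters), GAGGAAGT, GCGTG (the core bound by the aryl hydrocarbon receptor) and TATAAA, each read on both strands; the GAAA and GGAA forms can overlap each other.
Ms4a7, minus strand, chr19:11336147-11336396: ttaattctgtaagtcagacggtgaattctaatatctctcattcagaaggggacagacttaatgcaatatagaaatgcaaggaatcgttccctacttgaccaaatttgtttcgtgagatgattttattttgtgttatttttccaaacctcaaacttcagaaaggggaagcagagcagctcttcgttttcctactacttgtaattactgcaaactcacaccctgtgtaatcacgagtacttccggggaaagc
Ms4a7, the second start, minus strand, chr19:11334696-11334945: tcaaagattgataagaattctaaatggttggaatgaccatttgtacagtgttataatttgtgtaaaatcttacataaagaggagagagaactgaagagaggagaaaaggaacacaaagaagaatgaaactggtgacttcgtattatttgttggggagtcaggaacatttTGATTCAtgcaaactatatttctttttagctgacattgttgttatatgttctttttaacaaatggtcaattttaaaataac
Clec12a, plus strand, chr6:129349994-129350243: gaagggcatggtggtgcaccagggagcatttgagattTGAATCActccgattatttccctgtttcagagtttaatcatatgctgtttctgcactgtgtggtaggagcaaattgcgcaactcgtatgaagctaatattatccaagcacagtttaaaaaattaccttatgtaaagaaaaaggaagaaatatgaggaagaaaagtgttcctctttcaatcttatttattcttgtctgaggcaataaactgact
Apoe, minus strand, chr7:19699189-19699438: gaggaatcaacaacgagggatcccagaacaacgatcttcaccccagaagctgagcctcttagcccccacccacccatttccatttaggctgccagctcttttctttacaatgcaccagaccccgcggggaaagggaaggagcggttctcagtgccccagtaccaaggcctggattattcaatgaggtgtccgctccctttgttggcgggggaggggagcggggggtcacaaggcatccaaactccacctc
Apoe, the second start, minus strand, chr7:19698622-19698871: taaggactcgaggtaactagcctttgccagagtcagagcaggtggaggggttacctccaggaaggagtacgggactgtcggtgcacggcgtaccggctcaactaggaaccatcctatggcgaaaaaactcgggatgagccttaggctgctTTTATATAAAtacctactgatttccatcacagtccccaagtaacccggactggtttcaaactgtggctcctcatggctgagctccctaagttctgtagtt
Sall1, minus strand, chr8:89044163-89044412: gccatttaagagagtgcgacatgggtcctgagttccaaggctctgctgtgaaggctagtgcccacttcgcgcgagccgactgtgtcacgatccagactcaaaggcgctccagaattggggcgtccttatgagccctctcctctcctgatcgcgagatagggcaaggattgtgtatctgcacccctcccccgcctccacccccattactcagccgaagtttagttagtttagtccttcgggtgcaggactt
Sall1, the third start, minus strand, chr8:89042863-89043112: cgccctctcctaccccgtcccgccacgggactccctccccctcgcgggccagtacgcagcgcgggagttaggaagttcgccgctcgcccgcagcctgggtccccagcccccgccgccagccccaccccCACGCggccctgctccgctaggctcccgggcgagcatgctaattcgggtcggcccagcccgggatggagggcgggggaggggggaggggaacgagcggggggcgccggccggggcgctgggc
P2ry12, minus strand, chr3:59262986-59263235: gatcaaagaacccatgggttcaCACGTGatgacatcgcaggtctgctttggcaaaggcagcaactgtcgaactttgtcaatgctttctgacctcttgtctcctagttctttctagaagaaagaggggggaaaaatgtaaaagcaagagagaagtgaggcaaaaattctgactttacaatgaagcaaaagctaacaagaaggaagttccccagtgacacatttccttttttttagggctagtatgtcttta
TGANTCA stood in the Clec12a window and before the second Ms4a7 start, CACGTG in the P2ry12 window, TATAAA in 2 overlapping matches before the second Apoe start, and GCGTG, as its reverse complement, before the third Sall1 start. Of 8036 tested genes with a RefSeq promoter, 4.13% held TGANTCA in such a window, with 5.26% of the risen and 2.91% of the fallen genes. CACGTG was in 8.91% of all, 8.05% of the risen and 9.51% of the fallen, and GAAA, NN, GAAA in 2.89%, 4.19% and 2.36%. TATAAA was in 6.18% of all, 8.05% of the risen and 7.08% of the fallen, and GCGTG in 46.7%, 41.5% and 44.9%. These are matches of letters, not evidence of binding. The genes lie at chr19:11321039-11336146 (Ms4a7), chr6:129342691-129365303 (Clec12a), chr7:19696109-19699188 (Apoe), chr8:89027235-89044162 (Sall1) and chr3:59216272-59262871 (P2ry12) in GENCODE vM21.

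Beyond Sall1, transcription factors of macrophages went both ways. Of 72 tested, 16 rose and 13 fell against a background of 15.1% in each direction, with a median log2 change of -0.05. Sall3, a paralogue of Sall1, fell too, with 96.1, 77.8, 77.5 and 77.9 CPM in host and 3.44, 8.23, 6.27 and 4.76 CPM in monocyte-derived libraries (log2 change -3.87 ± 0.25). Ahr, the ligand-activated aryl hydrocarbon receptor, was at 0, 0, 0 and 1.33 CPM in host libraries, 2 counts in all, and at 45.8, 45.3, 57.8 and 54.0 CPM in monocyte-derived libraries, a count ratio of 202 with a 95% counting interval of 55.4 to 1674. Runx3, a Runt-domain factor, rose from 1.10 to 31.2 CPM, while Rara, the retinoic acid receptor alpha gene, had no host count and 7.50 CPM in monocyte-derived cells. Irf5 fell by 0.53 on the log2 scale, Mef2c rose by 0.39, Maf by 0.81 and Bhlhe40 by 1.67, and Hhex fell by 1.13. Mef2a was level, at 319.5, 319, 364 and 376 CPM in host and 331, 339.9, 329 and 328 CPM in monocyte-derived libraries, with a 95% interval of its log2 change of -0.31 to 0.19.

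Receptors with C-type lectin domains, which bind sugars and other ligands on pathogens and dying cells, were mostly higher in monocyte-derived microglia. Of 32 tested, 21 rose and 2 fell, with a median log2 change of 2.71. These figures depend on the filter, which ran over all 5 groups. With the 8 libraries alone 13 rose, and with at least 10 counts in 4 of the 8 libraries 12 rose. Besides Clec12a, Cd93 rose from 0, 0.905, 0.349 and 1.33 to 137, 114, 128 and 116 CPM, with a log2 change of 7.41 ± 0.34. The mannose receptor gene Mrc1, common in border macrophages, had 28.5, 25.3, 24.1 and 28.0 CPM against 603, 606, 615 and 551 CPM (log2 change 4.49 ± 0.18, adjusted p = 2e-20). Its host values lay between 24.1 and 28.5 CPM, clear of the counting floor. Klra2, a lectin-like receptor of the Ly49 family, had 2 host counts and 59.0, 65.0, 70.4 and 80.9 CPM in monocyte-derived libraries, a count ratio of 272 (95% counting interval 74.7 to 2251). Clec7a, the beta-glucan receptor Dectin-1, rose from 26.6 to 99.8 CPM, and Clec2d from 46.9 to 322 CPM. Both list members that fell were Mrc2, a collagen receptor, from 18.2 to 2.07 CPM, and Selplg, which is a ligand of selectins rather than a lectin. Selplg had 5735, 6331, 5419 and 5570.1 CPM in host and 1001, 1005, 901 and 1085 CPM in monocyte-derived libraries, a log2 change of -2.53 ± 0.20.

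Of 8 tested Ms4a genes, which lie close together and are similar in sequence, 7 rose and none fell (median log2 change 3.37). Ms4a14 rose from 0, 1.36, 0.349 and 1.33 to 135, 153, 143 and 134 CPM and Ms4a6c from 76.9, 77.8, 67.4 and 67.3 to 669.9, 842, 693 and 728 CPM. Ms4a6b and Ms4a6d were already at 149 and 164 CPM in host microglia and reached 694 and 259.7 CPM. The family thus ran from genes near 0 in host cells to genes well expressed in both groups. Ms4a8a, the eighth, was at 0.492 CPM and did not pass. How reads shared between such paralogues were assigned is not given in the sources used here, which also touches the Ifi200, Ly49 (Klra) and ribosomal genes.

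Chemokine ligands and receptors, which steer the migration of leukocytes, had 21 risen (56.8%) and 8 fallen (21.6%) of 37, with a median of 1.5. The share of all tested genes was 15.1% in each direction. Among ligands, Pf4 (Cxcl4) rose from 4.27, 4.98, 5.93 and 4.00 to 372, 398, 434 and 413 CPM (log2 change 6.32 ± 0.25). Cxcl16, the ligand of Cxcr6, had 115, 109, 93.6 and 106 CPM against 426, 373, 411 and 347 CPM (log2 change 1.88 ± 0.14). Ccl12, a ligand of Ccr2, rose from 261 to 838 CPM, and Ccl8 had 2 host counts and 27.2 CPM in monocyte-derived cells. Ligands did not all go one way: Ccl4 fell from 587 to 299 CPM and Ccl6 from 152 to 70.2 CPM, while Ccl3 was at 534 and 497 CPM with an interval of -0.46 to 0.25. Among receptors, Cxcr4, which binds Cxcl12 and holds cells in the marrow, had 1.42, 1.81, 2.09 and 2.66 CPM against 83.7, 91.4, 102 and 96.0 CPM (log2 change 5.47 ± 0.23). Ccr1 rose from 21.2 to 169.5 CPM, and the fallen receptor genes besides Cx3cr1 included Cmklr1, from 225 to 109 CPM, and C5ar1, the C5a receptor, from 38.7 to 7.62 CPM.

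The MHC class II molecules display peptides to helper T cells, and their genes were among the largest gains in CPM. H2-Aa had 33.4, 33.5, 55.5 and 29.3 CPM in host and 923, 1518, 1627 and 1314 CPM in monocyte-derived libraries (log2 change 5.12 ± 0.26). H2-Ab1 had 47.0, 46.2, 64.2 and 42.6 CPM against 964, 1623, 1636 and 1250.0 CPM, and Cd74, the invariant chain, 47.0, 49.3, 52.7 and 47.9 CPM against 868, 1363, 1402 and 1216 CPM. In all 3 genes monocyte-derived replicate 1 was the lowest of its group. Of 42 interferon-inducible GTPases and Ifi genes, 22 rose and 2 fell (median 1.15). Ifi203, an Ifi200-family protein, rose from 2.13, 4.52, 6.63 and 6.66 to 327, 341, 316 and 301 CPM, and Ifi207 from 9.96, 13.1, 18.5 and 5.99 to 233, 249.4, 265 and 228 CPM. The DNA sensor gene Ifi204 had 42.7, 48.4, 36.7 and 29.3 CPM against 182, 179, 185 and 194 CPM (log2 change 2.23 ± 0.16). Not all interferon-inducible genes moved: Ifit1, Ifit3 and Irgm1 were at 15.99, 23.6 and 66.4 CPM in host cells and 17.5, 25.5 and 75.7 CPM in monocyte-derived cells, with intervals of -0.40 to 0.54, -0.40 to 0.56 and -0.15 to 0.49. Bst2, which tethers enveloped viruses, rose from 487, 474, 512 and 387 to 1689.9, 1704, 1822 and 1617 CPM.

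Toll-like receptors, inflammasome genes and adaptors were split, with 11 risen (27.5%) and 9 fallen (22.5%) of 40. Of all tested genes, 15.1% went each way, and the median of the list was 0.15. Nlrc4, the inflammasome scaffold for flagellin sensing, had 2 host counts and 28.1, 25.5, 43.2 and 48.4 CPM in monocyte-derived libraries (count ratio 143, 95% counting interval 39.1 to 1191). Casp1, the inflammasome protease, rose from 66.2, 52.5, 75.1 and 66.6 to 130.1, 169, 158 and 139.7 CPM, and Tlr1, which pairs with Tlr2, from 39.9, 42.5, 38.1 and 42.6 to 74.5, 101.2, 98.2 and 93.6 CPM. Pycard, the adaptor between sensors and Casp1, went the other way, from 358 to 150.9 CPM, and Tlr3, a sensor of double-stranded RNA, fell from 50.8 to 22.0 CPM. Trem2 and its signalling partner Tyrobp did not pass the test, at 3168 ± 144 and 3637 ± 134 CPM (SD, n = 4) in host cells and 2461 ± 33.9 and 3173 ± 155 CPM in monocyte-derived cells.

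Fc receptors and their signalling genes leaned downward, with 3 risen and 8 fallen of 23 and a median of -0.17; the 8 became 5 without host replicate 2 or host replicate 3. Fcgr3, a receptor for immunoglobulin G, had 2870.1, 3310.4, 3122 and 2838 CPM against 1282, 1456, 1338 and 1365 CPM (log2 change -1.16 ± 0.15). Fcgrt, the neonatal Fc receptor, had 98.9, 117, 111 and 135 CPM against 45.8, 53.5, 52.9 and 52.4 CPM. The receptor gene Lilr4b moved the other way, from 2.13, 1.36, 3.14 and 2.66 to 60.7, 53.5, 71.1 and 65.1 CPM. The shared signalling chain Fcer1g was level, at 1064 and 1059 CPM, with an interval of -0.36 to 0.35. Of 26 Siglecs, which bind sialic acid, and sialic acid enzymes, 5 rose and 11 fell (median -0.26). Cmah, which makes glycolylated sialic acid from the acetylated form, had 1 host count and 62.5, 49.4, 57.1 and 48.4 CPM in monocyte-derived libraries (count ratio 440, 95% counting interval 78.4 to 17446). St8sia4, a polysialyltransferase, rose from 4.27, 3.17, 6.63 and 3.33 to 72.2, 69.96, 64.8 and 65.9 CPM, while Siglecf fell from 44.8, 50.7, 43.3 and 38.0 to 5.16, 5.76, 4.18 and 4.76 CPM and St3gal5, the GM3 synthase, from 202 to 23.1 CPM. Cd33 was not called, although its host libraries at 289.6, 301, 303 and 295 CPM all lay above the monocyte-derived ones at 265, 263, 256 and 272 CPM; its log2 change of -0.17 had an interval of -0.44 to 0.09.

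Adhesion genes went both ways: 9 rose and 14 fell of 32 (median -0.11). Itga4, the alpha chain of the integrin VLA-4, rose from 0.712, 1.36, 1.75 and 2.66 to 94.6, 92.2, 102 and 84.1 CPM (log2 change 5.75 ± 0.26), and its ligand Vcam1 from 40.6, 49.8, 48.5 and 38.6 to 603, 791, 669.5 and 636 CPM (log2 change 3.91 ± 0.20). Nrp1, a co-receptor for semaphorins and VEGF, rose from 80.4, 65.6, 75.4 and 70.6 to 351, 379, 314 and 361 CPM. Nrp2, its paralogue, fell from 55.4 to 20.8 CPM. Of the junctional adhesion genes, Jam2 fell from 61.9, 52.5, 55.2 and 59.9 to 4.58, 4.94, 4.18 and 6.35 CPM and Jam3 from 35.9 to 0.913 CPM, while F11r (JAM-A) was not called at 395 and 416 CPM and Jaml rose from 0.991 to 6.64 CPM. Both chains of the complement receptor CR3 fell, Itgam from 947 to 455 CPM and Itgb2 from 615 to 292 CPM. Fscn1, which bundles actin in cell processes, fell from 325, 375, 349 and 306 to 26.4, 24.7, 30.7 and 23.8 CPM, and Actb from 6682, 6325, 5153 and 5598 to 3702, 3617, 3688 and 3734 CPM. The actin-binding thymosin gene Tmsb4x, with 1786, 1223, 1192 and 2232 CPM against 2092, 2658, 2978 and 2754 CPM, was called higher (adjusted p = 0.015, edgeR), but adjusted p rose past 0.05 without host replicate 2, host replicate 3 or monocyte-derived replicate 3.

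Tetraspanins, which organise membrane proteins into microdomains, had 2 risen and 10 fallen members of 19 (median -0.54). Cd9 had 1314, 1334, 1207 and 1189 CPM in host and 241, 260.1, 235 and 301 CPM in monocyte-derived libraries (log2 change -2.28 ± 0.16). Cd81 had 1958, 1913, 1797 and 1612 CPM against 723, 851, 788 and 829 CPM, and Tspan4 252, 240.3, 259 and 266 CPM against 86.5, 97.9, 92.7 and 136 CPM. Cd63, which resides in late endosomes, was a riser, from 395 to 783 CPM, and Upk1b, a tetraspanin best known from bladder epithelium, lay outside the list and fell from 232, 199.6, 198 and 182 to 7.45, 15.6, 8.36 and 7.14 CPM (log2 change -4.41 ± 0.23). Of 32 adhesion and orphan G-protein-coupled receptors, 12 rose and 8 fell (median 0.12), or 5 without monocyte-derived replicate 2. Gpr65, a proton-sensing receptor, had 9.96, 16.7, 13.96 and 15.3 CPM against 334, 305, 314 and 304 CPM (log2 change 4.46 ± 0.17), and Adgre1, which encodes F4/80, 289.6, 318, 287 and 308 CPM against 778, 779, 820.0 and 804 CPM. Adgre5 (CD97) rose from 1.16 to 18.4 CPM, whereas Adgrg1 (GPR56) fell from 662 to 205 CPM and Gpr84, a receptor for medium-chain fatty acids, from 391 to 76.9 CPM.

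**Figure D3:**
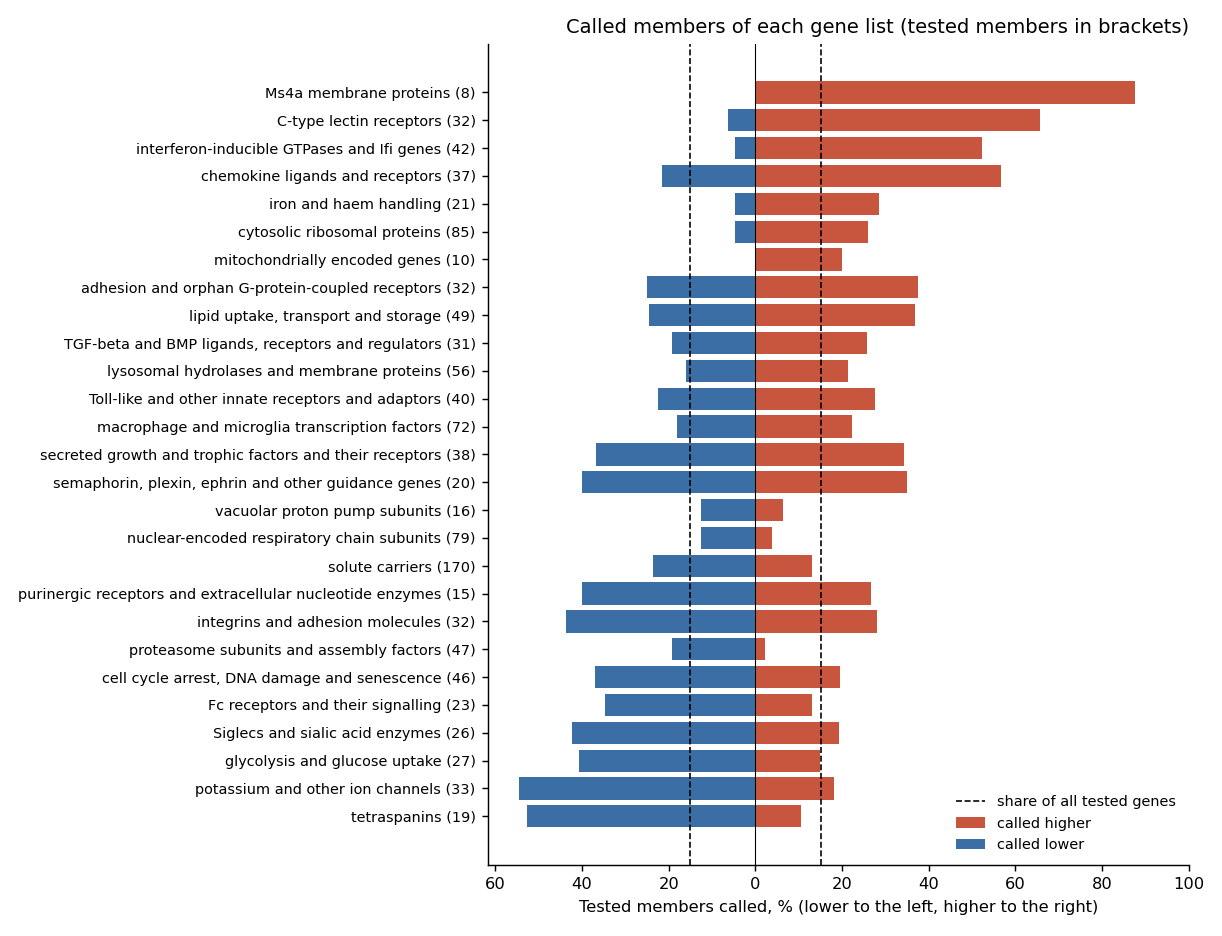
Percentage of the tested members of 27 gene lists and families that were called higher (right) or lower (left) in monocyte-derived microglia, with the number tested in brackets and dashed lines at 15.1%, the share of all tested genes. Ms4a genes (87.5% higher) and C-type lectin receptors (65.6%) stand at the top, and ion channels (54.5% lower) and tetraspanins (52.6%) at the bottom. Tested members are those that passed the filter over all 5 groups.

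Receptors and enzymes for extracellular nucleotides were led down by Adora3, the A3 adenosine receptor, with 188, 180.1, 184 and 192 CPM in host and 18.9, 18.9, 16.7 and 32.5 CPM in monocyte-derived libraries (log2 change -3.10 ± 0.27). Of 15 tested, 4 rose and 6 fell (median -0.04). Besides P2ry12, the ATP- and ADP-degrading enzyme gene Entpd1 fell from 677 to 351 CPM and P2ry13 from 876 to 433 CPM. P2ry14, a receptor for UDP-sugars, rose from 4.27, 1.81, 3.49 and 1.33 to 17.2, 23.0, 24.4 and 19.8 CPM, and the ATP-gated channel gene P2rx4 from 124 to 216 CPM. P2rx7 was at 182 and 177 CPM, with an interval of -0.30 to 0.21.

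Ion channel genes had 6 risen and 18 fallen members of 33 (median -0.56). Kcnk12, a tandem-pore potassium channel gene of the THIK group, fell from 49.8, 44.8, 47.1 and 38.0 to 3.44, 3.29, 2.79 and 3.97 CPM (log2 change -3.70 ± 0.30), whereas its paralogue Kcnk13, which carries the resting potassium current of microglia, was at 51.6 and 45.2 CPM and did not pass (interval -0.50 to 0.11). Itpr2, which releases calcium from internal stores, had 228, 241, 267 and 242 CPM against 72.2, 106, 74.5 and 100.8 CPM. Genes of store-operated calcium entry fell too, Orai1 from 266 to 132 CPM and Stim1 from 66.3 to 44.0 CPM. Trpv4, an osmosensitive channel, and Clic4 rose from 15.6 to 39.4 CPM and from 10.9 to 43.5 CPM.

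Of 170 solute carriers (median -0.18), 22 (12.9%) rose and 40 (23.5%) fell, against 15.1% of all tested genes in each direction. Slc2a5, a fructose transporter typical of microglia, had 594, 600.5, 656 and 568 CPM against 56.2, 55.1, 50.9 and 80.9 CPM (log2 change -3.32 ± 0.28). Slc1a3, a glutamate transporter that astrocytes also express, had 155, 204, 187 and 198 CPM against 18.9, 23.0, 23.0 and 18.3 CPM. Slc38a6, of an amino acid transporter family, rose from 52.0, 52.5, 55.2 and 57.9 to 284, 259, 245 and 259 CPM, and the nucleoside transporter gene Slc28a2 from 0, 0.452, 1.05 and 0 to 22.3, 15.6, 17.4 and 17.5 CPM. Slc29a3, a lysosomal nucleoside transporter, was not called, at 341, 329, 367 and 342 CPM and 330.1, 273, 284 and 302 CPM (interval -0.48 to 0.05). Glycolysis and glucose uptake genes had 4 risen and 11 fallen of 27 (median -0.47). Ldhb, a lactate dehydrogenase subunit, fell from 513, 433, 493 and 522 to 108, 121, 99.6 and 175 CPM, and Aldoa, Ldha and Pkm fell, with log2 changes of -0.96, -0.61 and -0.47. Slc2a6 moved the other way, from 8.54, 9.50, 5.59 and 5.33 to 43.0, 30.5, 42.5 and 42.9 CPM.

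Lipid genes went both ways, 18 up and 12 down of 49 (median 0.24). Next to Apoe, Pla2g7, which hydrolyses platelet-activating factor, rose from 2.13, 5.43, 5.93 and 5.99 to 150.7, 160.5, 159.5 and 160.3 CPM (log2 change 4.92 ± 0.21). Plbd1, a phospholipase B-like protein, rose from 0.712, 0, 0.698 and 1.33 to 57.9, 63.4, 72.5 and 66.7 CPM. Receptors for modified lipoproteins rose from a floor-level start: Msr1 from 1.01 to 31.9 CPM, and Cd36 from 1 host count to 33.9 CPM. The cholesterol exporter gene Abca1 rose from 171 to 376 CPM, and Cyp27a1, which makes 27-hydroxycholesterol, from 72.1 to 242 CPM. Fallen members included the phospholipid-remodelling acyltransferases Lpcat3, from 212 to 76.0 CPM, and Lpcat2, from 618 to 375 CPM, and the receptor Lrp1, from 793 to 547 CPM. Plpp1, a lipid phosphate phosphatase outside the list, fell from 91.8, 98.6, 89.7 and 86.6 to 6.88, 6.58, 6.97 and 12.7 CPM.

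Lysosomal genes went both ways, with 12 risen (21.4%) and 9 fallen (16.1%) of 56 against 15.1% of all tested genes in each direction, and a median of -0.06. Ctse, an intracellular aspartic protease, was the extreme, from 0.712, 0.905, 1.05 and 0.666 to 150.7, 155, 152 and 147 CPM (log2 change 7.27 ± 0.28). Ctsc, the dipeptidyl peptidase that activates granule proteases, rose from 345, 375, 344 and 353 to 1249.8, 1246, 1377 and 1247 CPM, Galc, the galactosylceramidase that degrades myelin lipid, from 40.6, 37.1, 39.8 and 36.0 to 157, 153, 159 and 140.5 CPM, and lysozyme, Lyz2, from 649.7, 781, 689 and 648 to 3739.7, 4203, 3808 and 3760.2 CPM. Cst3, the cathepsin inhibitor cystatin C, fell from 52708, 32789, 41063 and 49065 to 19643, 20138, 21676 and 21570.5 CPM. Laptm5 fell from 6274, 6013, 5920.3 and 5668 to 3128, 2881, 2844 and 2868 CPM. The major protease genes Ctsd and Ctsb, in contrast, were at 9908 and 170.2 CPM in host and 10336 and 152 CPM in monocyte-derived cells, with intervals of -0.30 to 0.42 and -0.48 to 0.15. Scarb2, a lysosomal membrane receptor, was not called, at 258, 234, 254 and 221 CPM against 283, 281, 280.1 and 255 CPM (interval -0.07 to 0.44), but was called higher with the 8 libraries alone (log2 change 0.21, adjusted p = 0.027, edgeR).

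Iron and haem genes had 6 risen and 1 fallen member of 21 (median 0.28). Cp, the ferroxidase ceruloplasmin, had 15.7, 21.3, 20.9 and 26.0 CPM in host and 471, 624, 499 and 549 CPM in monocyte-derived libraries (log2 change 4.66 ± 0.18). Ncoa4, the receptor that sends ferritin to the lysosome, rose from 15.7, 19.0, 9.43 and 19.3 to 57.3, 48.6, 52.9 and 49.2 CPM, and Blvrb, a biliverdin reductase, from 106, 110.4, 120.1 and 115 to 221, 237, 219 and 205 CPM. The ferritin heavy chain gene Fth1 and the iron exporter gene Slc40a1 were not called, at 2975 and 114 CPM in host and 3354 and 143 CPM in monocyte-derived cells.

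Secreted growth factors and their receptors had 13 risen and 14 fallen of 38 (median -0.36). Igf1, a trophic factor for neurons and oligodendrocytes, rose from 1.42, 2.26, 3.49 and 4.66 to 120.3, 137, 141 and 127 CPM (log2 change 5.40 ± 0.29), and Fgf2 from 1.42, 0.905, 0.349 and 0 to 43.0, 44.4, 34.8 and 42.9 CPM. Axl, a receptor for apoptotic cells, had 61.2, 91.9, 78.9 and 59.9 CPM against 573, 514, 502 and 558 CPM (log2 change 2.87 ± 0.17), while its relative Mertk was level at 739 and 704 CPM (interval -0.43 to 0.29) and their ligands Gas6 and Pros1 fell from 208 to 114 CPM and from 230.2 to 82.3 CPM. Csf1r, the receptor on which microglial survival depends, was not called, at 4782 ± 158 CPM in host and 4179 ± 64.5 CPM in monocyte-derived cells (SD, n = 4). Its ligand Csf1 fell from 31.1 to 4.72 CPM.

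TGF-beta and BMP genes had 8 risen and 6 fallen of 31 (median -0.17). Gdf3, a ligand of this superfamily, had 2 host counts and 131, 122, 139 and 86.5 CPM in monocyte-derived libraries, a count ratio of 483 (95% counting interval 133 to 3993), and the ligand Bmp2 had no host count and 13.6 CPM. Tgfbi, an extracellular matrix protein induced by TGF-beta, rose from 69.7, 61.5, 70.5 and 63.9 to 359, 425, 385 and 381 CPM, and Eng, a co-receptor, fell from 189, 214, 189.9 and 189 to 44.7, 45.3, 34.8 and 38.9 CPM. The receptor gene Tgfbr1 and Nrros, which presents latent TGF-beta on microglia, were not called, with intervals of -0.57 to 0.07 and -0.41 to 0.23. Guidance genes had 7 risen (35%) and 8 fallen (40%) of 20 (median 0.07), against 15.1% of all tested genes in each direction. Nav3, a microtubule-associated neuron navigator, fell from 127, 105, 89.4 and 114 to 14.3, 21.4, 20.2 and 16.7 CPM and the ephrin receptor gene Epha2 from 53.4, 65.6, 68.8 and 63.9 to 13.2, 14.8, 15.3 and 20.6 CPM, while Sema6d rose from 7.28 to 29.6 CPM.

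**Figure D4:**
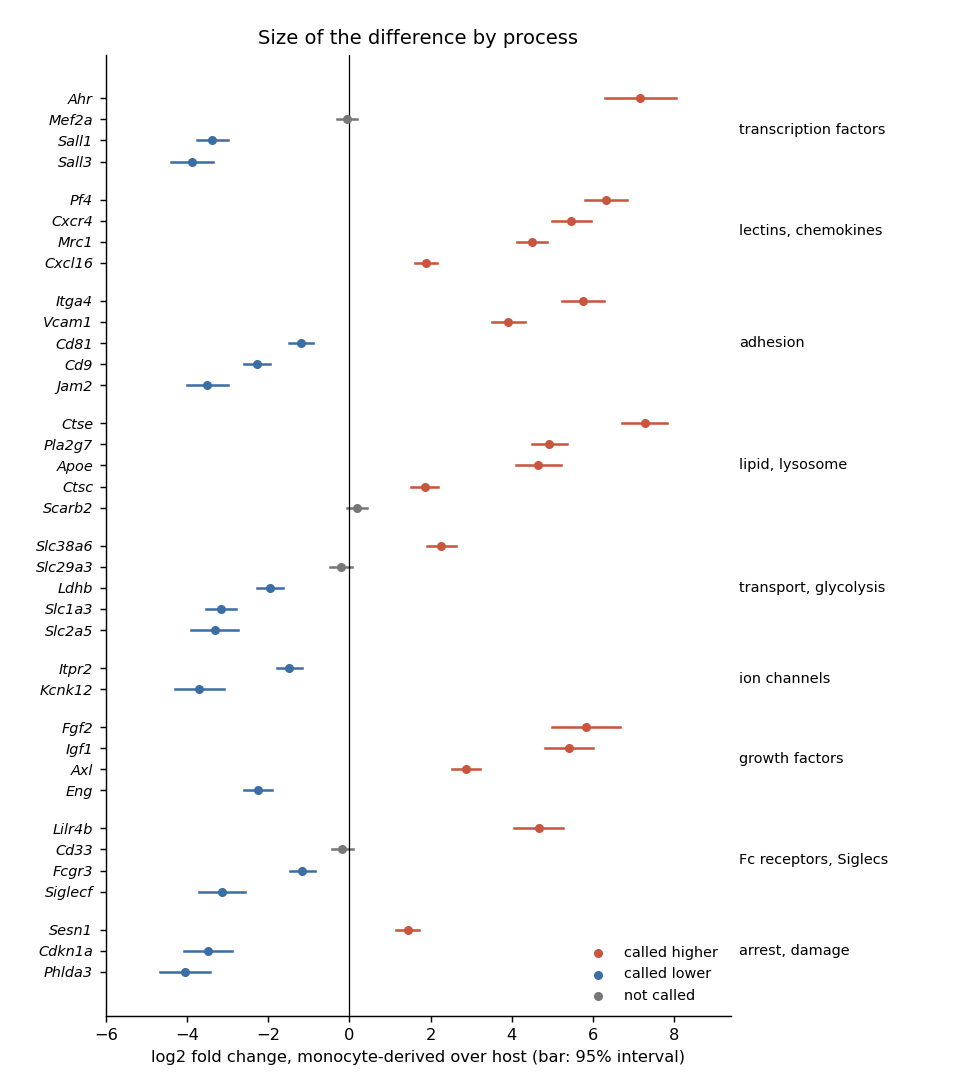
log2 fold change of monocyte-derived over host microglia (points) with its 95% interval from the edgeR fit (bars) for 36 genes in 9 groups of function, 4 libraries a group; colour gives the call. Within most groups of function the genes shown lie on both sides of 0, and Mef2a, Scarb2, Slc29a3 and Cd33 lie near it. The 36 genes were picked by hand from the named genes, so the sides shown reflect that choice.

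Genes of cell cycle arrest and DNA damage, many of them targets of p53, had 9 risen (19.6%) and 17 fallen (37.0%) of 46 (median -0.20). Of all tested genes, 15.1% went each way. Cdkn1a, the cell cycle inhibitor p21, had 1909, 1867, 2443 and 2033 CPM in host and 189.7, 179, 173 and 196 CPM in monocyte-derived libraries (log2 change -3.48 ± 0.29). Phlda3, a p53-induced inhibitor of Akt, fell from 48.4, 50.2, 49.2 and 46.0 to 3.44, 0.823, 2.79 and 3.97 CPM, and Bbc3, the pro-apoptotic protein PUMA, from 49.1, 54.3, 53.4 and 35.3 to 8.60, 16.5, 9.06 and 11.9 CPM. Cdkn2a, a marker of senescence, fell from 24.0 to 3.79 CPM, Bax from 321 to 138 CPM and Ccng1 from 99.7 to 37.7 CPM. Sesn1 went the other way, from 143, 141, 111 and 131 to 386, 362, 320.5 and 351 CPM, and Cdkn1b, another cell cycle inhibitor, rose from 22.9 to 51.5 CPM.

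Other genes with large gains or losses, given next, belonged to no list. Tmem176b and Tmem176a, neighbouring genes of intracellular membrane proteins, rose from 401, 435, 469.9 and 407 to 2212, 2060.1, 2323 and 2154 CPM and from 185, 233, 189.6 and 155 to 1573, 1405, 1584 and 1458 CPM. Stab1, a scavenger receptor, rose from 781, 939.8, 937 and 862 to 2041, 2323, 2226 and 2271 CPM, and Mgst1, a microsomal glutathione transferase, from 0.712, 1.81, 0.349 and 0.666 to 81.9, 75.7, 92.0 and 96.0 CPM. Sparc, a secreted matrix protein, fell from 6897, 6111, 5334 and 5662 to 1798, 1672, 1644 and 1641 CPM (log2 change -1.83 ± 0.25). Mymk, a muscle fusion factor, fell from 63.3, 92.3, 69.8 and 44.0 to 2.87, 4.12, 6.27 and 5.56 CPM, Mlph, a melanosome linker protein, from 107, 133, 127 and 109 to 7.45, 9.05, 6.97 and 5.56 CPM, and Ak1, an adenylate kinase, from 89.0, 93.2, 96.0 and 119 to 6.88, 5.76, 10.5 and 7.94 CPM.

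Genes of the general cell machinery differed by small amounts. Of 79 nuclear-encoded respiratory chain subunits, 3 rose and 10 fell (median -0.12), and 66 had a 95% interval within -1 and 1, which 58.8% of all tested genes had. Without the 3 libraries of other groups that held under 500000 counts, 9 rose and 24 fell, and without host replicate 3 the counts were 1 and 6. Ndufa8 of complex I fell from 119, 139.8, 144 and 132 to 66.5, 75.7, 72.5 and 80.2 CPM, the ATP synthase subunit gene Atp5j from 118, 99.1, 109 and 123 to 62.5, 52.7, 57.1 and 56.3 CPM, and Sdhd of complex II from 105, 121, 120.4 and 95.2 to 76.2, 64.2, 66.2 and 81.7 CPM. Of 47 proteasome genes (median -0.17), 1 (2.13%) rose and 9 (19.1%) fell, against 15.1% of all tested genes in each direction. The 9 became 3 to 5 without host replicate 1, 3 or 4 or monocyte-derived replicate 1 or 2. The riser was the proteasome activator gene Psme4, from 45.1 to 79.9 CPM, while the ATPase subunit genes Psmc2 and Psmc3 fell from 181 to 107 CPM and from 176 to 115 CPM. The vacuolar proton pump had 1 riser and 2 fallers of 16 (median -0.15): Atp6v0a2 fell from 165, 152, 159 and 161 to 73.4, 69.96, 58.5 and 77.8 CPM and Atp6v1c1 from 131, 121, 110.0 and 123 to 70.5, 63.4, 69.0 and 60.3 CPM, and Atp6v1g2 rose from 7.58 to 15.6 CPM. The mitochondrial phosphate carrier gene Slc25a3 was level at 311, 342, 328 and 329 CPM against 296, 281, 321 and 296 CPM.

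Cytosolic ribosomal protein genes had 22 risen and 4 fallen of 85 (median 0.30), and their summed share was 5.02 to 5.95% of host counts and 6.54 to 7.28% of monocyte-derived counts. Without the 3 shallow libraries of other groups 42 rose, and with the 8 libraries alone 50. Rps24 rose from 776, 741, 792 and 1082 to 1915, 2119, 2096 and 2063 CPM and Rpl22l1 from 50.5, 38.5, 41.5 and 55.3 to 106, 110.3, 100.3 and 92.1 CPM, while Rps4l, a copy of Rps4x, fell from 40.6, 46.2, 53.8 and 40.6 to 6.88, 5.76, 8.36 and 4.76 CPM. Of 10 mitochondrially encoded genes 2 were called. mt-Nd4 had 2363, 2056, 2191 and 2963 CPM against 3119, 3741, 3598 and 3536 CPM, and mt-Nd1 1658, 1191, 1367 and 2355 CPM against 2084, 2569.5, 2537 and 2582 CPM, with overlap in the latter. Their adjusted p of 0.03 and 0.036 rose past 0.05 when 1 library was left out, in 6 of 8 cases for each gene, and mt-Nd1 also lost its call with DESeq2.

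Marker genes of some, but not all, other cell types differed between the groups. Choroid plexus transcripts took 0.245 to 0.426% of host counts and 0.00215 to 0.0212% of monocyte-derived counts (exact two-sided permutation test over libraries, p = 0.0286, the smallest that 4 against 4 allows, and adjusted p = 0.0514 over 18 shares). Of 10 tested, 9 fell, with a median of -5.73. Ttr, the transthyretin carrier made by that epithelium, had 1927, 3251, 2254 and 2579 CPM in host and 156, 9.05, 4.88 and 14.3 CPM in monocyte-derived libraries, and Enpp2 128, 224, 230.1 and 167 CPM against 4.58, 1.65, 0.697 and 0.794 CPM. In monocyte-derived libraries 6 of the 17 list genes in the table were at 0, among them Folr1, Kcnj13 and Kl. In host libraries none was, so the large falls of Ttr and Enpp2 came with those of the other choroid plexus genes.

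Astrocyte markers had 3 fallen of 8, Slc1a3, Clu and Mfge8, and took 0.0239 to 0.0333% against 0.00454 to 0.00536% of counts; neither Slc1a2 at 2.33 and 2.19 CPM nor Aldoc at 3.78 and 4.79 CPM was called. T and NK cell genes had 17 risen and none fallen of 23 (median 1.76), against 15.1% of all tested genes in each direction. With the 8 libraries alone 10 rose. Members near 0 in host cells could enter through other groups and be called in 1 direction only. The T and NK cell share was 0.0152 to 0.0224% in host and 0.0401 to 0.0504% in monocyte-derived libraries (exact permutation test, adjusted p = 0.0514). Cd3e rose from 0.378 to 4.30 CPM and Cd8a from 4.29 to 22.7 CPM. Blood monocyte genes had 12 risen and 1 fallen of 19 (median 2.45), or 7 risen with the 8 libraries alone. Their shares were 0.0211 to 0.0257% and 0.0562 to 0.0681% (exact permutation test, adjusted p = 0.0514). F13a1 rose from 0.813 to 45.5 CPM, Ccr2 from 8.84 to 47.7 CPM and Ly6c2 from 1.15 to 16.8 CPM. Of 12 dendritic cell genes, 5 rose, or 3 without monocyte-derived replicate 3, and 2 fell (median 1.99). Their share differed little, at 0.289 to 0.337% and 0.318 to 0.335%, but this sum hides opposite changes. Siglech held 65.5% of the list's counts in host libraries and Bst2 59.3% in monocyte-derived libraries. Siglech fell from 1795 to 1003 CPM, while Bst2 rose from 465 to 1708 CPM.

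Of 11 neutrophil genes 2 rose, S100a9 and S100a8, from no host count to 15.9 and 5.29 CPM, and Csf3r, which macrophages also express, fell. DESeq2 called 5 risen and edgeR without robust dispersion 4. With the 8 libraries alone 0 rose, and likewise 0 with at least 10 counts in 4 of the 8 libraries. The neutrophil share was 0.0262 to 0.0434% in host and 0.0139 to 0.0212% in monocyte-derived libraries, but Csf3r alone held 99.7% of the list's counts in host and 82.8% in monocyte-derived libraries; 9 of the 12 list genes in the table were at 0 in host libraries, among them Ngp, Camp and Retnlg, and 1 in monocyte-derived libraries. B cell genes had no call in 5, neuron genes none in 3, mast cell genes none in 5 and erythroid genes none in 5; endothelial genes had 1 risen and 3 fallen of 5, fibroblast and mural genes 1 risen of 4, oligodendrocyte genes 1 fallen of 7 and ependymal genes 1 risen of 2, the lipid transfer protein Pltp. These marker lists hold genes that macrophages themselves express, among them Ccl5, Itga4, Siglech, Slc1a3 and Csf3r. In host libraries Ttr held 88.1% of the choroid plexus counts, Slc1a3 73.7% of the astrocyte counts and Ccl5 54.1% of the T and NK cell counts. The part that transcripts from other cells had in the differences of macrophage genes was not tested.

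**Figure D5:**
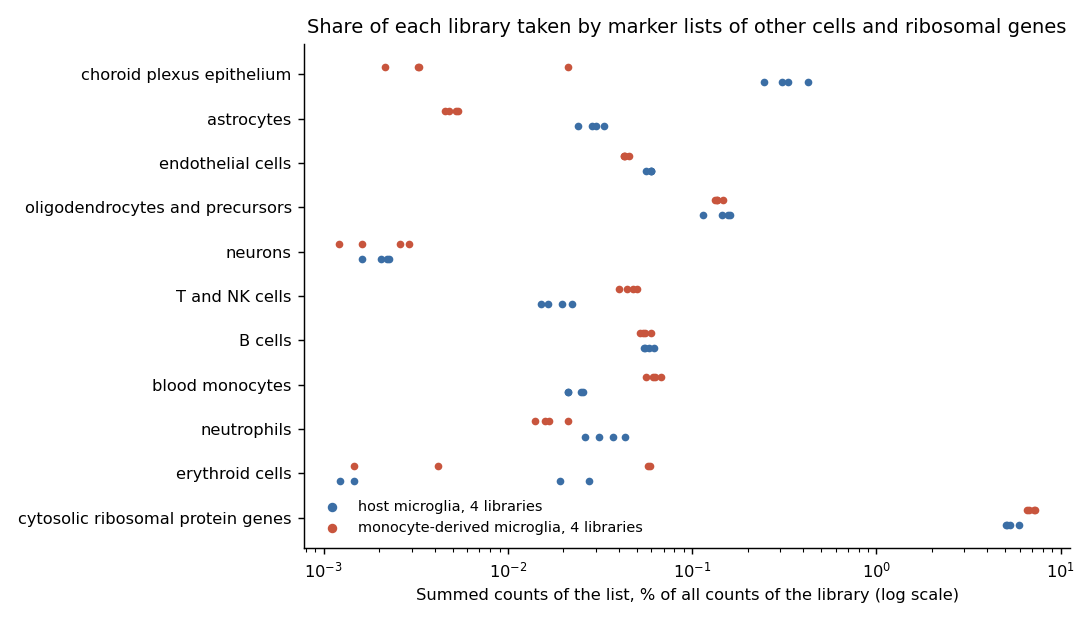
Summed counts of marker lists of other cells and of cytosolic ribosomal protein genes, in percent of all counts of a library on a log scale, with 1 point for each of 4 host and 4 monocyte-derived libraries. Choroid plexus transcripts are higher in all host libraries, T and NK cell and monocyte transcripts in all monocyte-derived libraries, and erythroid transcripts vary within both groups.

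Some list counts depended on the other groups in the fit, which shared its estimate of the spread and its filter. With the 8 libraries alone, 9175 genes were tested and 2131 were higher and 2055 lower. C-type lectin genes then had 13 risen, adhesion and orphan G-protein-coupled receptors 6, guidance genes 4, T and NK cell genes 10, blood monocyte genes 7, dendritic cell genes 1 and neutrophil genes 0, and choroid plexus genes 4 fallen. Other counts went up: 20 fallen transcription factors, 11 risen iron and haem genes, 10 fallen TGF-beta and BMP genes, 14 fallen lysosomal genes, 16 risen and 29 fallen respiratory chain genes and 5 fallen proton pump genes. No called gene reversed its direction in this fit.

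Within monocyte-derived microglia the libraries differed most along the second principal component, 6.0% of the variance, with replicates 2 and 4 at its ends. Replicate 4 was the highest of its group for 57 of the 182 genes that fell past 4-fold (31.3%), against 37, 50 and 34 in replicates 1 to 3. Sall1, Adora3, Slc2a5, Cd9 and Plpp1 were among them, chosen as examples after their values had been seen. For the 431 genes that rose past 4-fold, replicate 3 was the highest in 147 (34.1%) and replicate 1 the lowest in 133 (30.9%). Ties, such as shared zeros, were counted for no library.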

How the data were processed

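The deposited table holds UMI counts by gene; its unscaled columns are whole numbers, and scaled and log-transformed columns were not used. The build is mm10 per the submitters' processing notes; the sources used here do not name the aligner, the strand setting or the counting program. Of 20 unscaled columns, 2 matched no described sample and were not used. All 18 libraries entered 1 fit with a coefficient per group (edgeR 4.0.16 in R 4.3.3: TMM, filterByExpr, robust quasi-likelihood), contrasting monocyte-derived with host microglia, adjusted by Benjamini-Hochberg over 10597 genes at 0.05. The common coefficient of biological variation came to 0.161. The other groups thus share the estimate of the spread. Changes are log2 fold changes with SE; their 95% intervals come from the same fit. Where a group held 1 to 3 counts, summed counts are given as a ratio with an exact Clopper-Pearson interval. Library shares were compared by an exact permutation test (scipy 1.17.1). On simulated counts of 10024 genes, the fit found 93% of 100 genes set to a 2-fold change and 100% of 100 set to a 4-fold change. The fit also called 3 unchanged genes there. The changed genes were drawn only from genes well above the counting floor in host libraries, and all genes were given the same spread. Whether these percentages hold for the genes of the real libraries was not tested.

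Named genes were the 12 highest and 12 lowest called genes by log2 change whose groups did not overlap and whose higher mean reached 50 CPM, the 10 largest gains and losses in CPM, up to 3 called members per list with the smallest p, 7 markers, and 5 uncalled members of the process lists with narrow intervals. Other list members named beside them were chosen as examples after their values had been seen. A few genes and 1 family are not reported here. The 17 process lists, 14 marker lists and 10 gene families, like the comparison itself, were chosen with earlier results of these data known. Alternatives were another model (DESeq2 1.42.0, limma-voom of limma 3.58.1), scaling, filter, depth, threshold, set of libraries, a replicate block, and leaving out each library. Same-numbered libraries of the groups did not deviate together (r = -0.0416, -0.0230, 0.0213 and -0.0301). Such values cannot settle whether equal numbers mark 1 mouse. Replicate libraries differed by more than sampling noise (chi-square per gene 1.43 to 3.93).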

Additional observations from a re-analysis of the deposited data

Results flagged for a closer look

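Among 258 groups of 4 libraries (111 named genes and 18 library shares), 24 held 1 library far from the other 3. Chance meets the rule in about 1 in 20 groups if values are normally distributed. That rate need not hold for genes with few counts, and a group with counts in 1 library only always meets the rule. Each value is given here without an explanation.

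In monocyte-derived replicate 4, Plpp1 was at 12.7 CPM, Cx3cr1 at 1884 CPM and Adora3 at 32.5 CPM, all above the rest of their group, and Scarb2 at 254.8 CPM, below it. The first 3 genes are lower in monocyte-derived than in host microglia. In monocyte-derived replicate 1, Ttr was at 156 CPM against at most 14.3 CPM in the other 3, and the choroid plexus share was 0.0212% against at most 0.00330%. In the same library Laptm5 was high at 3128 CPM, and Pla2g7 at 150.7 CPM, Fcgrt at 45.8 CPM and mt-Nd1 at 2084 CPM were low. In monocyte-derived replicate 2, Upk1b at 15.6 CPM and Lyz2 at 4203 CPM were high and Slc2a6 at 30.5 CPM was low. In monocyte-derived replicate 3, Ctsc at 1377 CPM and Atp6v1g2 at 17.4 CPM were high and Fgf2 at 34.8 CPM was low.

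In host replicate 1, Sall3 was high at 96.1 CPM and Pla2g7 low at 2.13 CPM. In host replicate 2, Eng was high at 214 CPM, and Cmah, at 0.452 CPM, was the only library of its group with a count. In host replicate 3, H2-Aa was high at 55.5 CPM, and the share of endothelial genes low at 0.0561%. In host replicate 4, Rps24 was high at 1082 CPM, and Ahr, at 1.33 CPM, had all of the group's counts. The values of Cmah and Ahr lie at or below the 3-count floor.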

How the results depend on the processing

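Of 22 alternative settings, none reversed a called gene, and the number called in either direction stayed within 1.5 times of 3201 in all but the test against a 2-fold change, which called 691 genes, 437 higher and 254 lower. Outside that test, 2532 to 3191 of the 3201 calls were kept. Leaving out 1 library each gave 2591 to 2865 called genes, 1338 to 1486 higher and 1238 to 1379 lower. DESeq2 called 1541 higher and 1481 lower, limma-voom 1735 and 1668, and library size without a scaling factor 1332 and 1570. With the replicate number as a block on the 8 libraries, 2101 were higher and 2028 lower, and the block cost Tmsb4x its call. Of 4 monocyte-derived libraries, 1 matched the host library of its own number best. The labels do not say whether equal numbers mark 1 mouse. Of 116 genes picked by the naming rule, 12 settings changed no call to uncalled; mt-Nd1 was lost with DESeq2 and with the 8 libraries alone, and the test against a 2-fold change lost 28, among them Tmem119, Cx3cr1, Cst3 and Fcgr3. Thinning to 1072911 counts called 1331 higher and 1273 lower; the 669 calls lost had a median level of 23.4 CPM over both groups and the 2532 kept of 41.0 CPM. Library shares that did not overlap between the groups could not change direction when 1 library was left out, so this setting did not test them. The shares of neuron genes (means 0.00203% in host and 0.00208% in monocyte-derived libraries) and mast cell genes (0.000117% and 0.000125%) did not keep their direction in every case. With 1 library left out, 3 against 4 cannot reach an exact p under 0.05.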

Other observations

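Several genes that were much higher in monocyte-derived than in host microglia belong to none of the lists. Itsn1, an endocytic scaffold protein, had 5.69, 8.60, 10.5 and 10.7 CPM in host and 119, 139, 129.6 and 129 CPM in monocyte-derived libraries (log2 change 3.81 ± 0.18, edgeR). Aoah, which removes acyl chains from lipopolysaccharide, had 6.40, 8.60, 7.33 and 5.33 CPM against 119, 88.1, 112 and 104 CPM, and Cyp4f18, which degrades leukotriene B4, 5.69, 12.2, 8.38 and 5.99 CPM against 111, 92.2, 110.1 and 102 CPM. Wfdc17, a secreted protein of macrophages, had 1.42, 5.43, 2.79 and 1.33 CPM against 104, 136, 132 and 105 CPM. Of 71 tested genes without a count in the 4 host libraries, 36 were called higher, among them Rgs18, a regulator of G-protein signalling, at 31.5 CPM in monocyte-derived cells, Serpinb8 at 20.5 CPM and Rnase2a at 14.04 CPM. Of 20 without a count in the 4 monocyte-derived libraries, 4 were called lower: the choroid plexus markers Ecrg4, Folr1 and Kl, and Vangl1, a planar polarity protein, at 8.73 CPM in host cells. A gene without a count in a group passed the filter through other groups and could be called in 1 direction only. Host microglia were 1 of the 5 groups in the filter, so the 71 and the 20 genes cannot be set against each other. The genes named here were chosen after their values had been seen.

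Some differences rested on 1 library. Mir692-1, called higher (adjusted p = 0.032, edgeR), had 10.3, 533, 9.06 and 8.73 CPM in monocyte-derived replicates 1 to 4 and 0, 4.07, 3.49 and 3.33 CPM in host replicates, so that its group mean was set by replicate 2; without that library its log2 change was 1.63 (adjusted p = 0.532). Gapdh was not called and had 7.83, 7.24, 160.2 and 5.99 CPM in host replicates 1 to 4 against 5.73, 5.76, 4.88 and 7.14 CPM, with host replicate 3 alone above 8 CPM. The haemoglobin gene Hbb-bs had 149, 0.452, 98.1 and 0.666 CPM in host and 3.44, 11.5, 299.6 and 302 CPM in monocyte-derived replicates, and was high in 2 libraries of each group.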
